A study of Mus musculus with 7 samples.

Results

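The 50 genes described here are the interferon response and MHC class I genes of a mouse cell line, taken by symbol from 46603 gene rows, of which 16731 passed the filter on low counts. All 50 were found and all 50 passed that filter, which asks for about 10 reads in at least 3 of the 6 libraries with a vector. TRAMP-C1 is a prostate tumour line from a C57BL/6 mouse of the TRAMP strain, C57BL/6-TgN(TRAMP)8247Ng, which carries a transgene that drives prostate tumours. Polyadenylated RNA of 3 groups was sequenced: cells transduced with a PAX8-NFE2L2 fusion gene in the Lv229 lentiviral vector (labelled fusion+, 3 libraries), cells with the matching empty vector (3 libraries) and a library labelled WT, whose label gives no vector (1 library). Virus was left for 12 h and cells grew for another 24 h in fresh medium. All groups are the same cell line, the libraries carry replicate numbers 1 to 3 that match between fusion and empty vector, and no label says that replicates were separate cultures, so p-values measure the spread between these libraries only. The labels do not say whether the WT cells went through the same handling.

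Interferons are secreted warning signals. Cells sense foreign RNA or DNA with proteins such as RIG-I (gene Ddx58) and MDA5 (Ifih1), secrete interferon, and answer it through receptors whose kinases activate the complex ISGF3, which holds STAT2 and IRF9. ISGF3 binds a DNA element, the interferon-stimulated response element, before many antiviral genes. MHC class I molecules show peptides from inside the cell to CD8 T cells, and interferon raises their chains, the peptide transporter TAP and the immunoproteasome. TRAMP-C1 cells are known for low MHC class I at the surface that interferon gamma raises. NRF2, which NFE2L2 encodes, turns on antioxidant genes, and PAX8 acts as a developmental regulator in thyroid and kidney.

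Reads assigned to genes lay between 26368182 (fusion replicate 3) and 59597170 (empty vector replicate 1) per library, so 0 reads allow a level of up to 0.0503 to 0.114 CPM (counts per 1000000 gene reads, scaled with TMM factors), counting error only. Pax8 lay at 6.4, 8.53 and 5.57 CPM in fusion replicates 1, 2 and 3, against 0.0334, 0.0358 and 0.217 CPM with empty vector and 0.0401 CPM in the WT library. The 2 libraries with number 3 were run on lanes that held no other library number. The labelled cell type is prostate epithelial. The list of 12 prostate epithelial markers, 8 of them tested, summed to 117, 155 and 123 CPM with the fusion, against 112, 109 and 93.0 CPM with empty vector and 157 CPM in the WT library. Within that list Trp63, a basal marker, lay between 6.13 and 27.2 CPM, Krt8 did not exceed 1.9 CPM and Epcam 0.529 CPM in any library, and the secretory marker Pbsn had at most 2 reads. Other markers of the list, not named here, made up most of each sum. The fibroblast list, led by the collagen genes Col1a1, Col1a2 and Col3a1, summed to 7010, 12507 and 8962 CPM in fusion replicates 1, 2 and 3, against 14295, 15232 and 10014 CPM with empty vector and 14812 CPM in the WT library. Of the 8 T and NK cell markers 6 had no read in any library and their sum stayed at or below 0.0963 CPM, and the leukocyte marker Ptprc had 0 reads in empty vector replicate 2.

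The stretch before the start of a gene is where ISGF3 binds, so promoters are shown for 5 members that differ in role and in level. Promoter sequences came from RefSeq (GRCm38.p6, 250 bases before to 50 after the start of a gene) and were found for 38 of the 50 genes. Capitals mark GAAA followed by any 2 bases and GAAA again, the core letters of the interferon-stimulated response element, on either strand (on the opposite strand they read TTTC, 2 bases, TTTC), and overlapping matches merge into 1 run. Each line gives the 150 bases before the start, 5′ to 3′ on the strand of the gene. Isg15 is at chr4:156200819-156200968 (minus strand) and Ifit1 at chr19:34640739-34640888 (plus strand), both antiviral genes of the interferon response. Irgm1, an interferon-inducible GTPase, is at chr11:48871421-48871570 (minus strand). B2m, the light chain of MHC class I, is at chr2:122147537-122147686 (plus strand). Psmb9, an immunoproteasome subunit, is at chr17:34187331-34187480 (minus strand).
Isg15: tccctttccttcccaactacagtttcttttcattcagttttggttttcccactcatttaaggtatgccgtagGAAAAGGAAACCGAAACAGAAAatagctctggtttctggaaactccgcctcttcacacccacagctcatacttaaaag
Ifit1: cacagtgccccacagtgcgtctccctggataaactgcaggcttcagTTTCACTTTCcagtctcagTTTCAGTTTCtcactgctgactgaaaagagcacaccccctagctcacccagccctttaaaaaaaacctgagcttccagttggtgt
Irgm1: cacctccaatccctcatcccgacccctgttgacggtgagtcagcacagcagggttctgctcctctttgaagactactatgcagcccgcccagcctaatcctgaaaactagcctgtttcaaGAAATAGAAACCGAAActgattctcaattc
B2m: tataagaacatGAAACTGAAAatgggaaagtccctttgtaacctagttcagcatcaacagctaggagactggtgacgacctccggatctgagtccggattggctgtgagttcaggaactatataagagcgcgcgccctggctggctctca
Psmb9: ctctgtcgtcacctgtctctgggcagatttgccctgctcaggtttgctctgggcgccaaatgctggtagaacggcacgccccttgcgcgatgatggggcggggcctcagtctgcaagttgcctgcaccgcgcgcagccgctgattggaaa
In these 150 bases Isg15 has 3 overlapping matches, Ifit1 2, Irgm1 2, B2m 1 and Psmb9 0. Of the 38 members with a promoter, 20 (52.6%) hold these core letters on either strand of the whole window, against 1079 (3.99%) of 27025 genes with a promoter in the table. The 4 GTPases with a promoter, Gbp2, Gbp3, Irgm1 and Igtp, all hold the core letters, as do 6 of 10 antiviral effectors, 2 of 5 class I chain genes and 1 of 5 immunoproteasome genes. A match of letters is a description and shows no binding.

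The first question was how the fusion changed these genes relative to empty vector. Fitted levels of most members were lower with the fusion, and the empty vector libraries differed widely among themselves. In either direction 0 of 50 passed the test (edgeR quasi-likelihood test with Benjamini-Hochberg adjustment at 0.05), and 12 had an unadjusted p under 0.05. Without empty vector replicate 2 the median log2 fold change was -0.17, 19 of the 50 were above 0 and again 0 passed. Over all 16731 genes tested 1.69% were called higher and 0.353% lower. DESeq2 called 4 members lower, Ifih1, Isg15, Usp18 and Trim30a, and 0 higher, where it called 1.79% of all genes lower and 3.72% higher. With all 6 libraries the median log2 fold change of the 50 in edgeR was -0.88, against 0.01 over all genes tested, and 46 of the 50 were below 0. The sum of the 50 genes was 2526, 3423 and 2273 CPM in fusion replicates 1, 2 and 3, against 2465, 7634 and 3399 CPM with empty vector and 4435 CPM in the WT library. Empty vector replicate 2 stood far above the rest, and empty vector replicate 1 lay within the range of the fusion libraries.

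**Figure D1:**
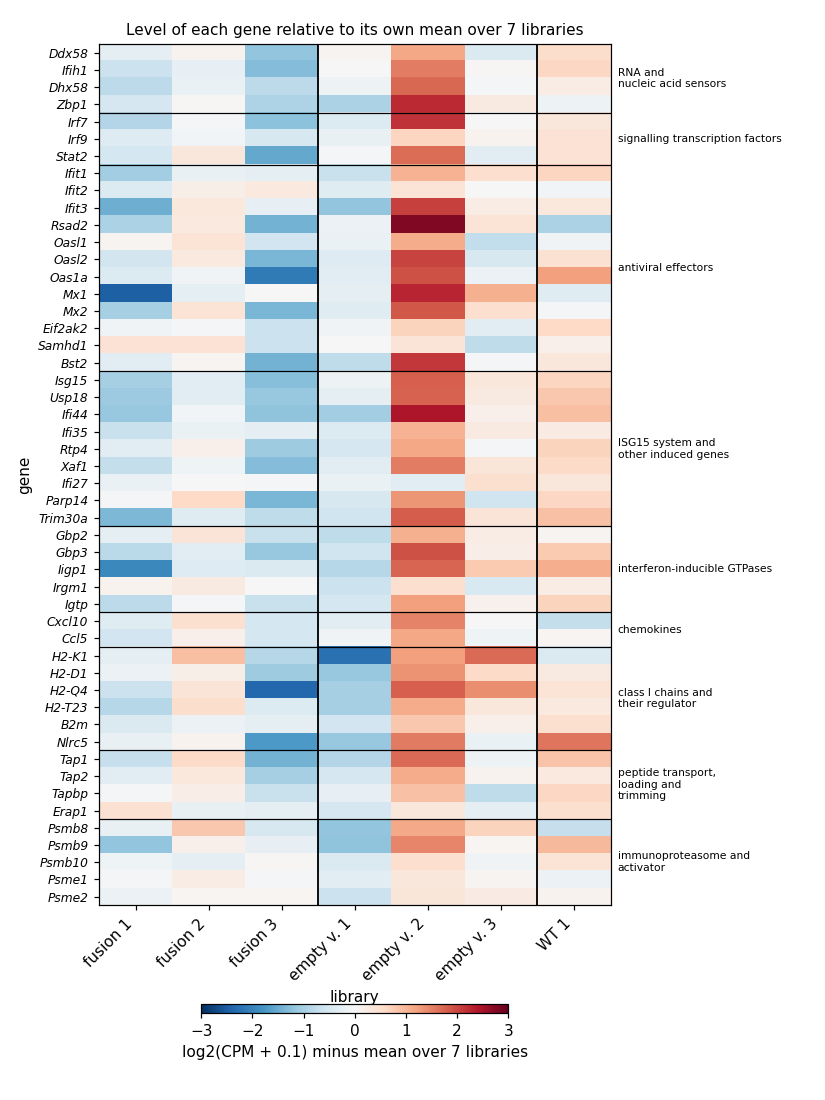
Level of each of the 50 genes in each library as log2(CPM + 0.1) minus the mean of that gene over the 7 libraries (red higher, blue lower), in rows by role and in columns fusion 1 to 3, empty vector 1 to 3 and WT. Empty vector replicate 2 is the reddest column and holds the highest value of 45 genes.

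Empty vector replicate 2 held the highest level of the 7 libraries in 45 of the 50 genes, where 12.9% of all genes tested had their highest level there. The exceptions were Ifi27 and H2-K1, highest in empty vector replicate 3, Nlrc5 and Erap1, highest in the WT library, and Samhd1, highest in fusion replicate 2. Fusion replicate 2 was likewise the highest of the 3 fusion libraries for 46 members, against 34.5% of all genes. Within the empty vector group the median member lay 1.85 higher in replicate 2 than in replicate 1 and 1.27 higher than in replicate 3, on the log2(CPM + 0.1) scale, and within the fusion group 0.62 and 0.96 higher. The same medians over all genes tested lay between 0.00 and 0.05. Libraries numbered 2 were thus high in both groups, which the unpaired fit counts as spread.

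With the replicate number as a block, here called the paired fit, 11 members fell and 0 rose, where 5.5% of all genes were called lower and 7.63% higher. They were the sensors Ddx58 and Ifih1, the signalling factors Irf9 and Stat2, the effectors Ifit1, Mx1 and Mx2, Isg15 and its protease Usp18, the GTPase Iigp1 and the chemokine Ccl5. Their log2 fold changes in that fit lay between -0.49 (Irf9) and -2.0 (Mx1). The role groups hold 2 to 12 genes, too few to compare the calls of 1 group with those of another. Of the 15 genes of class I chains, peptide loading and immunoproteasome 0 were called in the paired fit, which at 5.5% of all genes is no result about so few genes, and 6 of them (B2m, H2-D1, H2-T23, Nlrc5, Tap1 and Tap2) were called lower in the paired fit without the libraries numbered 1. Fusion lay below empty vector in each of the 3 replicate numbers for 25 members, against 24.6% of all genes, and in 4 members (Ifih1, Dhx58, Isg15 and Usp18) all 3 fusion libraries lay below all 3 empty vector libraries, against 6.66% of all genes. For 0 members did all fusion libraries lie above all empty vector libraries, against 9.15% of all genes. Fusion replicate 1 or 3 was the lowest of the 7 libraries for 32 members, against 31.5% of all genes. Of these, 23 were lowest in fusion replicate 3, the library of fewest reads, and 9 in fusion replicate 1, while empty vector replicate 1 was lowest for 13 members. Within the numbers the median member was -0.02 in number 1, -1.21 in number 2 and -0.88 in number 3 (log2 ratio of CPM + 0.1, fusion over empty vector). In number 1 the ratios went both ways, with 23 above 0 and 27 below, from -2.17 (Mx1) to 1.94 (H2-K1). All 11 members that fell in the paired fit were below 0 there, but that fit picked them with number 1 included, so this is no separate support.

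**Figure D2:**
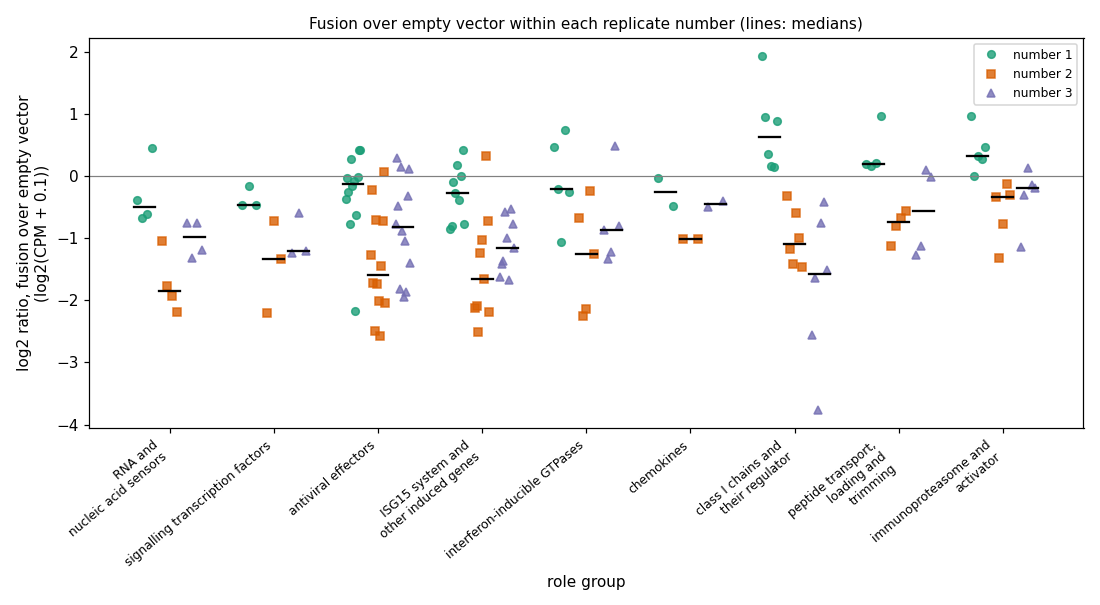
Log2 ratio of fusion over empty vector (CPM + 0.1) within each replicate number, 1 point per gene, in 9 role groups, with a line at each median. Ratios of number 2 (squares) and number 3 (triangles) lie mostly below 0, and those of number 1 (circles) lie on both sides.

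Of the 4 sensors of foreign nucleic acid 2 fell in the paired fit (5.5% of all genes did), and empty vector replicate 2 held the highest level of all 4. Ifih1 (MDA5, which binds long double-stranded RNA; ENSMUSG00000026896.13, chromosome 2:62595798-62646255) lay at 24.7, 32.8 and 15.8 CPM in fusion replicates 1, 2 and 3, against 39.6, 113 and 39.8 CPM with empty vector and 59.5 CPM in the WT library. The groups did not overlap, with the fusion below, as in 6.66% of all genes tested, and empty vector replicate 2 stood apart from its own group. The log2 fold change was -1.39 (SE 0.46, edgeR adjusted p = 0.26) in the unpaired fit and -1.27 (SE 0.22, edgeR adjusted p = 0.025) in the paired fit. Ddx58 (RIG-I, which binds RNA with a 5′ triphosphate; chromosome 4:40203773-40239828) lay at 89.1, 118 and 48.2 CPM with the fusion, against 116, 246 and 81.6 CPM with empty vector and 158 CPM in the WT library. Its groups overlapped, while fusion was lower within each number, with a log2 fold change of -0.73 in the paired fit (SE 0.13, edgeR adjusted p = 0.022; unpaired -0.79, adjusted p = 0.66). Dhx58 (LGP2, a regulator of both) averaged 23.9 ± 5.85 CPM with the fusion and 61.1 ± 48.5 CPM with empty vector (SD, n = 3 each) and passed neither fit; its exons overlap Dhx58os on the other strand. Zbp1, a sensor of Z-form nucleic acid that can trigger cell death, lay at 8.17, 11.9 and 6.06 CPM with the fusion, against 5.93, 55 and 14 CPM with empty vector and 10.5 CPM in the WT library. Here empty vector replicate 1 was the lowest of the 7 libraries and replicate 2 the highest, so 1 group spanned the whole range (log2 fold change -1.51, edgeR adjusted p = 0.52; paired -1.02, adjusted p = 0.31).

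Of the 3 factors that carry the interferon signal to DNA 2 fell in the paired fit (5.5% of all genes did). Empty vector replicate 2 was the highest library for all 3. Stat2 (chromosome 10:128270559-128292849) lay at 52.6, 96.6 and 26.3 CPM with the fusion, against 72.7, 242 and 60.4 CPM with empty vector and 103 CPM in the WT library. It fell in the paired fit by 1.0 on the log2 scale (SE 0.18, edgeR adjusted p = 0.029), and its unpaired log2 fold change was -1.10 (adjusted p = 0.65). Irf9, the DNA-binding part of ISGF3 (chromosome 14:55603571-55610030), lay at 71.1, 87 and 65.7 CPM with the fusion, against 79.6, 143 and 99.1 CPM with empty vector and 125 CPM in the WT library. It had the narrowest spread of the 3 factors, with a paired log2 fold change of -0.49 (SE 0.12, edgeR adjusted p = 0.046; unpaired -0.53, adjusted p = 0.55). Irf7, which amplifies interferon production, lay at 18.7, 33.6 and 14.6 CPM with the fusion, against 25.8, 154 and 34.7 CPM with empty vector and 43.6 CPM in the WT library. Its level in empty vector replicate 2 was 5.1 times the mean of the other empty vector libraries, and it passed neither fit (log2 fold change -1.68, edgeR adjusted p = 0.39; paired -1.32, adjusted p = 0.089). Irf7 shares exon bases with Phrf1 on the other strand.

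Among the 12 antiviral effectors 3 fell in the paired fit, where 5.5% of all genes fell. Ifit1, which binds foreign RNA caps (chromosome 19:34640871-34650009), lay at 109, 193 and 187 CPM with the fusion, against 141, 465 and 318 CPM with empty vector and 354 CPM in the WT library. All 3 fusion libraries lay below the WT library, and empty vector replicate 1 lay within their range (paired log2 fold change -0.80, SE 0.18, edgeR adjusted p = 0.045; unpaired -0.92, adjusted p = 0.5). Mx1 and Mx2 belong to a family of dynamin-like GTPases that block viruses. In C57BL/6 mice the Mx1 gene is known to be defective, and the gene annotation lists Mx2 as a polymorphic pseudogene. Mx1 (chromosome 16:97447035-97462907) lay at 0.686, 3.37 and 4.23 CPM with the fusion, against 3.44, 20.5 and 8.86 CPM with empty vector and 3.21 CPM in the WT library. It had the largest paired change of the 50 genes (log2 fold change -2.0, SE 0.33, edgeR adjusted p = 0.02; unpaired -2.0, adjusted p = 0.36). Mx2 lay at 6.48, 17.3 and 4.94 CPM with the fusion, against 10, 47.3 and 18.3 CPM with empty vector and 12.5 CPM in the WT library (paired log2 fold change -1.31, edgeR adjusted p = 0.03; unpaired -1.39, adjusted p = 0.5). In both Mx genes the WT library lay within the range of the fusion libraries.

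Other effectors did not pass either fit, and some showed no lower level. Bst2 (tetherin, which holds budding virus at the cell surface) lay at 118, 155 and 54.9 CPM with the fusion, against 87.4, 636 and 145 CPM with empty vector and 187 CPM in the WT library, so that a single library made the difference of means. Rsad2 (viperin) lay at 16.3, 39 and 11.9 CPM with the fusion, against 27.9, 220 and 42.2 CPM with empty vector and 16.4 CPM in the WT library. Rsad2, Oasl2, Ifit3, Oas1a and Eif2ak2 were lower with the fusion within every number. Oasl1 was not, with 22, 27.9 and 14 CPM with the fusion, against 18.1, 45.7 and 12.6 CPM with empty vector and 19.4 CPM in the WT library. Ifit2 lay at 107, 162 and 173 CPM with the fusion, against 110, 188 and 141 CPM with empty vector, a log2 fold change of 0.01 (SE 0.27, edgeR adjusted p = 1). Samhd1, which destroys the nucleotides that reverse transcription needs, lay at 177, 180 and 84.3 CPM with the fusion, against 133, 172 and 78 CPM with empty vector and 146 CPM in the WT library. It was higher with the fusion within every number and passed neither fit (paired log2 fold change 0.20, edgeR adjusted p = 0.22). Ifit3 and the Oas genes have close paralogs, and reads with several alignments were not counted under a gene.

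In the group of ISG15 and other induced genes, Isg15 and its protease Usp18 fell in the paired fit. Isg15, a ubiquitin-like protein that is joined to other proteins in infected cells (ENSMUSG00000035692.6, chromosome 4:156199424-156200818), lay at 45.3, 71.5 and 37.1 CPM with the fusion, against 81.4, 313 and 115 CPM with empty vector and 142 CPM in the WT library. The groups did not overlap, with the fusion below, as in 6.66% of all genes tested, and the WT library lay above all fusion libraries. Its log2 fold change was -1.73 (SE 0.51, edgeR adjusted p = 0.18; DESeq2 adjusted p = 0.0092) and -1.54 in the paired fit (SE 0.27, edgeR adjusted p = 0.032). Usp18, which removes ISG15 and damps the interferon receptor (chromosome 6:121245906-121270917), lay at 25.2, 42.8 and 24.4 CPM with the fusion, against 44, 183 and 64.8 CPM with empty vector and 94.5 CPM in the WT library. The groups did not overlap, with fusion replicate 2 just below empty vector replicate 1 (paired log2 fold change -1.44, edgeR adjusted p = 0.036; unpaired -1.66, adjusted p = 0.22; DESeq2 adjusted p = 0.018).

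The other induced genes varied widely. Ifi44 lay at 35.2, 73.8 and 33.7 CPM with the fusion, against 37.5, 421 and 87.1 CPM with empty vector and 145 CPM in the WT library, and its level in empty vector replicate 2 was 6.75 times the mean of the other empty vector libraries. Trim30a, a TRIM protein that restrains Toll-like receptor signalling, lay at 16.6, 33 and 24.9 CPM with the fusion, against 28.2, 151 and 55.7 CPM with empty vector and 78.4 CPM in the WT library (log2 fold change -1.66, edgeR adjusted p = 0.28; paired -1.38, adjusted p = 0.057; DESeq2 adjusted p = 0.035). Ifi27 went against the rest, at 184, 211 and 203 CPM with the fusion, against 185, 167 and 294 CPM with empty vector and 268 CPM in the WT library. Empty vector replicate 2 was the lowest of the 7 libraries for Ifi27 and the highest for the 8 other genes of its group. Ifi35, Rtp4, Xaf1 and Parp14 had unpaired log2 fold changes of -0.80, -0.72, -1.37 and -0.44, and none passed either fit.

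**Figure D3:**
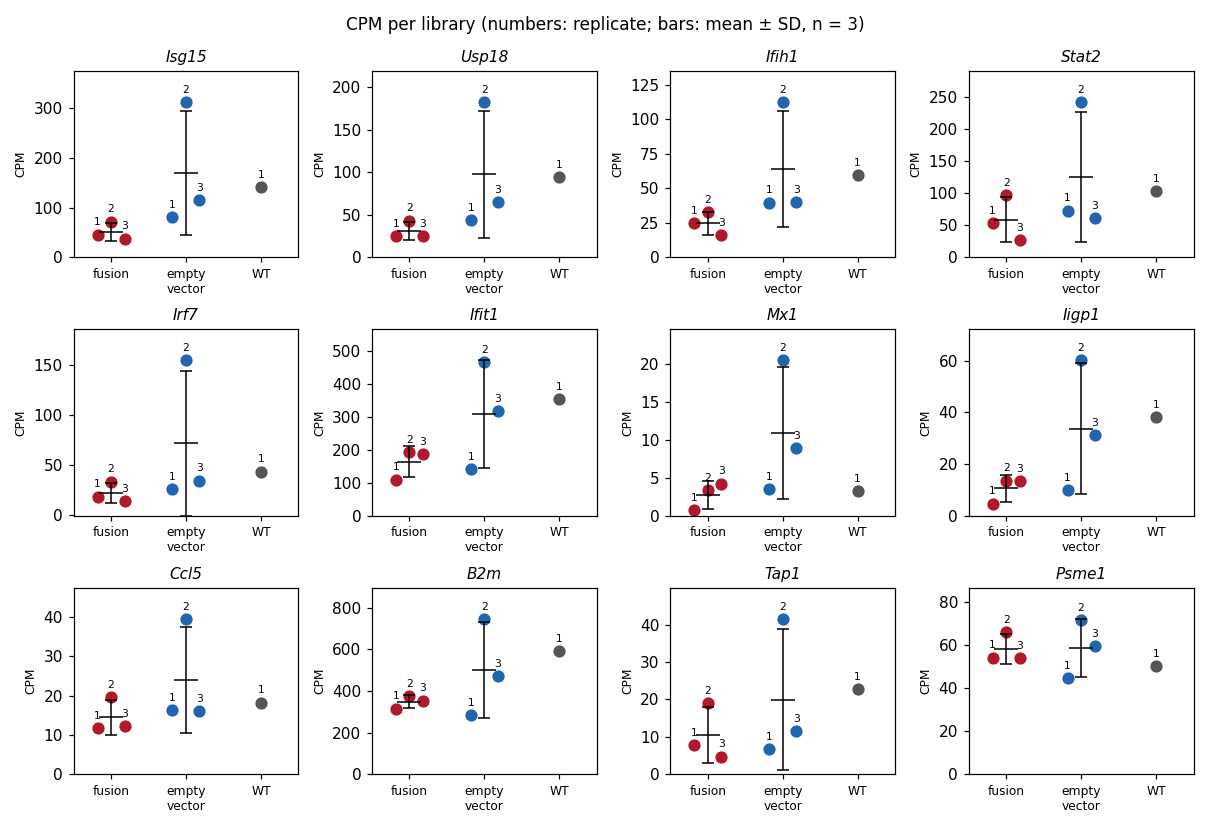
CPM of 12 of the genes in each library (fusion red, empty vector blue, WT grey, the digit giving the replicate number), with mean ± SD bars over n = 3 for fusion and empty vector. Empty vector replicate 2 is the highest point of every panel, and the fusion and empty vector points of Psme1 overlap fully.

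The interferon-inducible GTPases attack the vacuoles of intracellular parasites and bacteria. Iigp1 (chromosome 18:60376027-60392634) lay at 4.63, 13.6 and 13.2 CPM with the fusion, against 9.78, 60.1 and 31.1 CPM with empty vector and 38.1 CPM in the WT library. It was lower with the fusion within every number and fell in the paired fit (log2 fold change -1.50, SE 0.23, edgeR adjusted p = 0.017; unpaired -1.69, adjusted p = 0.35). Igtp lay at 12.3, 20.8 and 13.2 CPM with the fusion, against 14.6, 49.9 and 23.2 CPM with empty vector and 33.4 CPM in the WT library (paired log2 fold change -0.78, edgeR adjusted p = 0.062). Irgm1, a regulator of the other GTPases, lay at 181, 203 and 172 CPM with the fusion, against 108, 239 and 123 CPM with empty vector and 196 CPM in the WT library. Its fusion libraries stood between the lowest and the highest empty vector library, its fitted difference was 0.24 on the log2 scale (SE 0.31, edgeR adjusted p = 0.95), and its promoter, printed above, holds the core letters. Gbp2 and Gbp3 had log2 fold changes of -0.48 and -1.62 and passed neither fit.

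Both chemokines draw T cells. Ccl5 (chromosome 11:83525778-83530518) lay at 11.7, 19.7 and 12.1 CPM with the fusion, against 16.3, 39.6 and 16.1 CPM with empty vector and 18.2 CPM in the WT library (paired log2 fold change -0.64, SE 0.15, edgeR adjusted p = 0.038; unpaired -0.72, adjusted p = 0.64). Cxcl10 lay at 27.4, 49 and 24.7 CPM with the fusion, against 27.9, 99.1 and 35 CPM with empty vector and 21.7 CPM in the WT library. It was lower with the fusion within every number, by little in number 1, and passed neither fit (paired log2 fold change -0.52, edgeR adjusted p = 0.15). Exons of Cxcl10 overlap Art3 on the other strand.

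Levels of the 6 genes of the class I chains and their regulator differed widely between single empty vector libraries. B2m (chromosome 2:122147686-122153083) lay at 315, 376 and 354 CPM with the fusion, against 286, 748 and 470 CPM with empty vector and 594 CPM in the WT library, a log2 fold change of -0.53 (SE 0.33, edgeR adjusted p = 0.72; paired -0.42, adjusted p = 0.29). In number 1 the fusion library was the higher of the pair. The same held for all 6 genes of the chains and their regulator, where number 1 lay above 0 and numbers 2 and 3 below it. The ratio within number 1 was highest for the classical chains H2-K1 and H2-D1 (1.94 and 0.95), and that within number 3 was lowest for H2-Q4 (-3.77). H2-K1 lay at 14, 32.4 and 9.43 CPM with the fusion, against 3.56, 40.6 and 55.9 CPM with empty vector and 12.6 CPM in the WT library. H2-D1 lay at 54.6, 70.3 and 29.6 CPM with the fusion, against 28.2, 159 and 92.7 CPM with empty vector and 75.5 CPM in the WT library. Their fitted log2 fold changes of -0.84 and -0.85 passed neither fit (edgeR adjusted p = 0.9 and 0.75; paired 0.86 and 0.51). The nonclassical chain H2-T23 lay at 17.5, 45.3 and 23.6 CPM with the fusion, against 15.6, 68.6 and 40 CPM with empty vector and 38.6 CPM in the WT library. H2-Q4, another nonclassical chain, stayed between 0.0748 and 3.04 CPM in all libraries, with 2 reads in fusion replicate 3, its lowest. Nlrc5, the transactivator of class I genes, lay at 1.64, 2.09 and 0.524 CPM with the fusion, against 0.836, 5.93 and 1.68 CPM with empty vector and 6.13 CPM in the WT library. Class I chains are near-identical paralogs, so the split of reads among them is uncertain.

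Of the genes that make and load peptides 0 passed either fit over all 6 libraries, which is no result about so few genes. Tap1, a chain of the peptide transporter (chromosome 17:34187553-34197225), lay at 7.79, 18.9 and 4.68 CPM with the fusion, against 6.78, 41.6 and 11.5 CPM with empty vector and 22.9 CPM in the WT library (log2 fold change -0.93, edgeR adjusted p = 0.83). Tapbp (tapasin, which bridges TAP and class I) lay at 216, 253 and 139 CPM with the fusion, against 187, 405 and 130 CPM with empty vector and 341 CPM in the WT library, a log2 fold change of -0.25 (SE 0.42, edgeR adjusted p = 0.97). Tap2 and the peptide-trimming Erap1 had log2 fold changes of -0.64 and 0.13. Psmb9, which replaces a constitutive proteasome subunit and shares exon bases with Tap1, lay at 0.438, 1.26 and 0.935 CPM with the fusion, against 0.434, 3.29 and 1.18 CPM with empty vector and 2.32 CPM in the WT library. Psme1, a subunit of the proteasome activator PA28, lay at 54.1, 65.9 and 53.9 CPM with the fusion, against 44.7, 71.6 and 59.4 CPM with empty vector and 50.3 CPM in the WT library (log2 fold change -0.02, SE 0.23, edgeR adjusted p = 1). Psmb8, Psmb10 and Psme2 had log2 fold changes of -0.35, -0.16 and -0.07, and the median of the 5 genes was -0.16.

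Per kb of exon the members spanned a wide range of levels. B2m stood highest at a mean of 522 CPM per kb over the 7 libraries, followed by Bst2 at 219, Isg15 at 152 and Ifi27 at 147 CPM per kb. Without empty vector replicate 2, a choice made after seeing the data, B2m had 464, Ifi27 153, Bst2 138 and Isg15 108 CPM per kb. Nlrc5 (0.317), Psmb9 (0.385) and H2-Q4 (0.463 CPM per kb) stood lowest. By median the genes whose promoters hold the core letters and those whose promoters do not differed little in the comparison of fusion with empty vector, at log2 fold changes of -0.92 over 20 genes and -0.82 over 18 genes, and the range was -2.11 to 0.24 with the letters and -1.93 to 0.21 without. In the paired fit, which called 5.5% of all genes lower, 5 of the 20 and 1 of the 18 fell. These are too few genes to tell the sets apart.

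How single libraries set these values was read by leaving each out of the unpaired fit. Without empty vector replicate 2 the median log2 fold change of the 50 genes was -0.17, and 19 of them were above 0. Without empty vector replicate 1 it was -1.28, with 2 genes above 0 and 29 at an unadjusted p under 0.05. The other medians were -1.0 without empty vector replicate 3 and -0.74, -1.17 and -0.60 without fusion replicates 1, 2 and 3. None of these 6 fits called a member (edgeR, adjusted p). The paired fit moved with the numbers too. It called 30 members lower without the libraries numbered 1, where 4.06% of all genes were called lower, 10 of them among the 11. It called 2 without number 2 (Iigp1 and Trim30a; 0.741% of all genes) and 3 without number 3 (Ccl5, Mx1 and Mx2; 8.39% of all genes), with 0 members called higher in each.

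**Figure D4:**
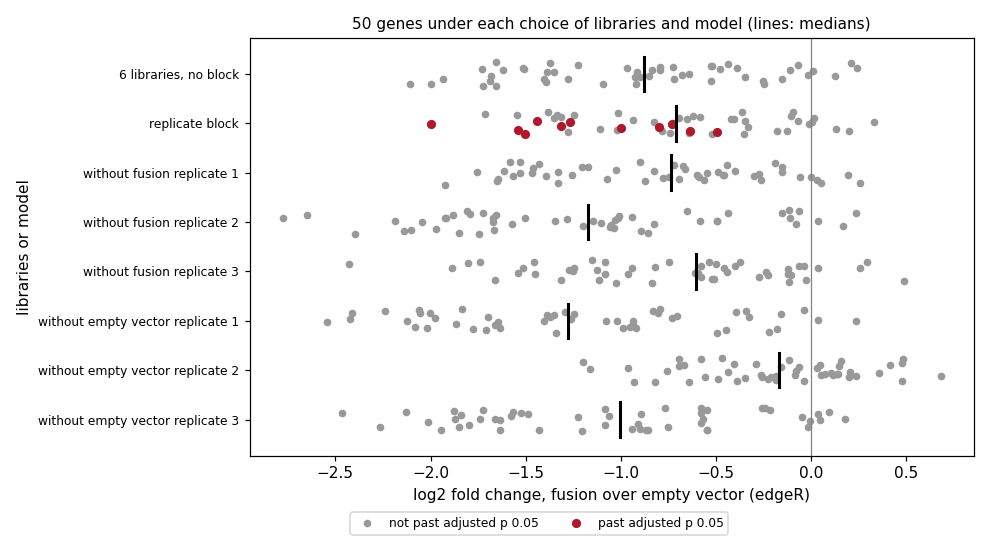
Log2 fold change of fusion over empty vector for each of the 50 genes (points; red past an adjusted p of 0.05) with all 6 libraries, with the replicate block, and without each library in turn, with a line at each median. The median is -0.17 without empty vector replicate 2 and -1.28 without empty vector replicate 1.

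The WT library was set against both groups in a fit over all 7 libraries, which takes the spread of the lone WT library to be that of the other groups. These comparisons share libraries with the first and are no separate evidence. Fusion against WT gave a median of -0.75 on the log2 scale for the 50 genes (0.03 for all genes tested), with 8 above 0, and -1.19 with 3 above 0 in the paired fit. In the unpaired fit 0 members passed in either direction, where 0.341% of all genes were called higher and 0.0956% lower; 1 member had an unadjusted p under 0.05, and DESeq2 called 0, where it called 2.19% of all genes higher and 0.789% lower. Empty vector against WT gave a median of 0.11 (0.01 over all genes), with 29 above 0. The paired fit counts the WT library with number 1, by its label alone, and in that fit the direction turned, to a median of -0.45 with 6 above 0. Number 1 holds empty vector replicate 1, whose median member lay at -0.85 relative to the WT library. Again 0 members passed, with 0% of all genes called in either direction, 0 members at an unadjusted p under 0.05 and 0 called by DESeq2 (0.221% of all genes higher, 0.203% lower) or in the paired fit (0.0359% higher, 0.0837% lower). Library by library the median member lay at -0.91, -0.31 and -1.23 in fusion replicates 1, 2 and 3 relative to the WT library, and at -0.85, 0.89 and -0.33 in empty vector replicates 1, 2 and 3 (log2 ratio of CPM + 0.1). The WT library therefore stood below empty vector replicate 2 in 47 members and above empty vector replicate 1 in 47. In the paired fit, which counts the WT library with number 1, 10 members fell with the fusion relative to WT, and 0 rose, where 5.25% of all genes were called lower and 4.57% higher. They were Ddx58, Ifih1, Irf9, Ifit1, Usp18, Trim30a, Iigp1, Igtp, H2-T23 and Psmb9, with log2 fold changes from -0.97 (Irf9) to -3.25 (Iigp1). Whether the WT library shares anything with the libraries numbered 1 cannot be checked with 1 library.

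Other genes of the pathway were read from lists of interferon ligands and receptors, signalling, feedback, other induced genes and antigen presentation. None of them passed the unpaired fit, and the following members of the lists were named after their values were seen. Of 69 other interferon-stimulated genes tested, 0 rose and 14 fell in the paired fit, which called 7.63% of all genes higher and 5.5% lower. Their median log2 fold change in the unpaired fit was -0.68, with 62 of 69 below 0. Empty vector replicate 2 was highest in 56 of the 74 that had a row. Ddx60, an RNA helicase, lay at 10.3, 18 and 9.61 CPM with the fusion, against 19.7, 87.1 and 38.4 CPM with empty vector (paired log2 fold change -1.74, edgeR adjusted p = 0.029). Helz2, an interferon-induced helicase, had a paired log2 fold change of -0.68 (SE 0.099, edgeR adjusted p = 0.0092). In the list of sensing and signalling genes 2 of 22 tested rose and 2 fell in the paired fit, which is near the shares of all genes. The unpaired median of that list was 0.08, with 8 of the 22 below 0. Trim25, a ligase that activates RIG-I, was among the fallers (paired log2 fold change -0.59, SE 0.13, edgeR adjusted p = 0.04). The 8 feedback genes, too few to set against the shares of all genes, gave 0 calls, with a median of -0.11. In the list of other class I and loading genes 2 of 19 tested rose and 2 fell in the paired fit, too few to set against the shares of all genes. The fallers were H2-M3 and Mr1 (log2 fold changes -0.84 and -0.42, edgeR adjusted p = 0.01 and 0.042), and the 2 risers are not named here. Of the class II list only 3 of 9 were tested, and H2-DMb1 and Cd74 fell in the paired fit (-2.07 and -1.57, edgeR adjusted p = 0.017 and 0.029) at levels that did not exceed 2.97 CPM in any library.

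Receptors and ligands stood differently. Interferon beta, Ifnb1, had 4, 1 and 4 reads in fusion replicates 1, 2 and 3, against 6, 34 and 10 reads with empty vector and 14 in the WT library, too few for the test. Its count was highest in the library in which the 50 genes were highest. Ifna1, Ifna2, Ifng, Ifnl2, Ifnl3 and Ifnk had no read in any library, which allows up to 0.0503 to 0.114 CPM per library. Of the 6 receptor genes tested, 4 rose with the fusion in the paired fit and 0 fell, where 7.63% of all genes were called higher and 5.5% lower. Ifnar1, a chain of the type I receptor, lay at 115, 132 and 114 CPM with the fusion, against 85.7, 91.6 and 76.2 CPM with empty vector and 88.7 CPM in the WT library, with no overlap (paired log2 fold change 0.51, SE 0.08, edgeR adjusted p = 0.0097; unpaired 0.51, adjusted p = 0.29). Ifnar2, Ifngr2 and Il10rb rose by 0.60, 0.38 and 0.40 on the log2 scale (edgeR adjusted p = 0.017, 0.047 and 0.039), and Ifngr1 did not pass (0.10, edgeR adjusted p = 0.65). The 4 genes that rose are neighbours on chromosome 16, from Ifnar2 at 91372783 to the end of Ifngr2 at 91565623, while Ifngr1 is on chromosome 10. The macrophage and dendritic cell list summed to 3.56, 4.45 and 4.08 CPM with the fusion, against 2.66, 3.12 and 2.41 CPM with empty vector and 3.83 CPM in the WT library, so empty vector replicate 2 stood within the range of the 7 libraries. Of the 8 fibroblast markers 4 fell with the fusion in the paired fit and 0 rose. Of 8 prostate epithelial markers tested 3 rose and 0 fell there, against the same shares of all genes. In the unpaired fit 2 of the 8 epithelial markers rose (1.69% of all genes) and 0 fell, and 0 fibroblast markers passed. The part of either list in the values of the 50 genes was not tested. The share of multiply aligned reads in empty vector replicate 2 was 38.3%, within the range of 36.1 to 45.3% over the 7 libraries. In RNA from a whole culture, fewer responding cells and less RNA per cell cannot be told apart.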

How the data were processed

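The authors deposited raw counts: for every sequencing lane, how many reads fell in each gene (12 tables, 7 libraries). STAR, HTSeq and GRCm38 are named in the submitters' processing notes; tool versions, the gene annotation and strandedness of counting were not given in the sources used here. Reads were 50 bp single-end, per the labels' protocols. Lanes were summed into 1 sample per library, their chi-square over genes being 0.978 to 1.01 per degree of freedom. GENCODE M21 (GRCm38) gave symbols for 46005 of 46603 rows, exon lengths and overlaps. Since strandedness is unknown, opposite-strand neighbours may affect the counts of 17 of the 50 genes. Reads over shared exon bases may be mixed in or may be lost as ambiguous. Unassigned rows were left out of totals: 5.73 to 6.93% of reads lay outside genes, 1.22 to 1.48% were ambiguous and 36.1 to 45.3% multiply aligned.

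Tests used edgeR 4.0.16 in R 4.3.3 (TMM, filterByExpr with minimum count 10, robust quasi-likelihood F test, Benjamini-Hochberg over 16731 genes). The code was also run on simulated counts with known changes. Their spread was fixed beforehand and not taken from these libraries, so that run gives no error rate for these data. SE is the size of the log2 fold change over the square root of F. DESeq2 1.42.0, RLE normalization, no count filter, a replicate block and leaving out libraries were alternatives. Pairing by number rests on correlated deviations from group means within every number (r = 0.574, 0.53 and 0.504 over all genes tested, 0.396, 0.677 and 0.249 over the 50 genes); no label says what a number shares. Members, lists and tests were chosen with earlier results of these data known. By rule, full values go to members past an adjusted p of 0.05 in either fit of any comparison and, per role group, to the member of highest mean CPM and of widest range; others were named after their values were seen. Some genes of the lists are not reported here.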

Additional observations from a re-analysis of the deposited data

How the results depend on the processing

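Counts below are of all genes called in either direction. Between fusion and empty vector 341 genes were called; DESeq2 called 922 and testing without the count filter 530, and the members called lower were 4 with DESeq2. With the replicate block, which follows the pairing by number, 2196 genes were called and 11 members fell; leaving out the libraries numbered 3 as well gave 3276 genes and 3 members, number 1 gave 1489 and 30, and number 2 gave 421 and 2. Between fusion and WT 73 genes were called, against 1642 with the block (10 members lower), 4060 with the block and without number 3 (10 members lower), 499 with DESeq2 and 245 without the filter. Between empty vector and WT 0 genes were called, against 20 with the block, 2401 with the block and without number 3 (2 members lower), 71 with DESeq2 and 15 without the filter. Leaving out 1 library at a time, the counts ranged from 139 to 373 for fusion against empty vector, 1 to 118 for fusion against WT and 0 to 5 for empty vector against WT, and 0 members were called in each. The median of the members between empty vector and WT ranged from -0.53 (without empty vector replicate 2) to 0.43 (without empty vector replicate 1).

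Over all 50 members, 4 had a log2 fold change of fusion over empty vector above 0 with all 6 libraries, and 19 without empty vector replicate 2. Single genes were followed only for members given full values by rule and for a few others. Among those followed, some log2 fold changes of fusion over empty vector changed sign, and none of these had passed either fit of that comparison. With 1 library left out, Cxcl10 ranged from -1.05 to 0.10, H2-T23 from -1.01 to 0.052, Tap1 from -1.67 to 0.20, Tapbp from -0.55 to 0.35 and Psmb9 from -1.35 to 0.14, each positive without empty vector replicate 2. Ifi27 ranged from -0.26 to 0.18, Psme1 from -0.18 to 0.16 and Ifngr1 from -0.033 to 0.19. Without the libraries numbered 3 Ifi27 was 0.18 (0.18 with the block) and Psme1 0.055 (0.089 with the block); Psme1 was 0.0050 with the block alone. With the block and without number 2, Tapbp was 0.15, Psme1 0.069 and Ifngr1 -0.020. The causes were not tested.

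With 3 libraries a group and 1 WT library, precision is set by the spread between libraries rather than by depth, except for genes of few reads such as H2-Q4, Psmb9 and Ifnb1.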
